A study of Mus musculus with 24 samples.

Results

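Polyamine metabolism is described here through 9 genes of mouse CD4 T cells, out of 46981 gene identifiers in the table. Odc1, Amd1, Srm and Sms encode the enzymes that build polyamines, Azin1, Oaz1 and Oaz2 the antizyme system that controls the first of them, and Sat1 and Smox enzymes of polyamine breakdown. The genes were listed by symbol, and the pathway was chosen by a measured value, the RPM of Srm, which had the largest rise on activation in these libraries. The rise of Srm and the activation of the wild-type (WT) cells of the Acly cohort are therefore given as descriptions with no test. All 9 genes passed the filter on low values, at least 1 RPM (counts scaled to a library total of 1000000) in at least 3 libraries of a cohort.

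RNA was sequenced from 24 libraries of CD4 T cells, in 2 cohorts of 12. The Acly cohort held knockout (KO) cells of CD4-Cre Aclyfl/fl mice, in which Cre under the Cd4 promoter was to remove ATP citrate lyase, and WT cells. The Pdha1 cohort held KO cells of Pdha1fl/fl CD4CreERT2 mice, in which a Cre that tamoxifen switches on was to remove the E1 alpha subunit of pyruvate dehydrogenase, and a WT group of its own. In each cohort, 3 libraries of each genotype came from cells activated through CD3 and CD28 for 24 h and 3 from resting cells, all in RPMI with 15% fetal bovine serum and 2 mM glutamine. The labels give neither the age of the mice nor a schedule for tamoxifen.

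Polyamines are small positively charged molecules that bind RNA and are needed by dividing cells. Ornithine decarboxylase (Odc1) makes putrescine. S-adenosylmethionine decarboxylase (Amd1) supplies the aminopropyl groups with which spermidine synthase (Srm) makes spermidine and spermine synthase (Sms) makes spermine. Antizymes (Oaz1, Oaz2) bind ornithine decarboxylase and deliver it to the proteasome, the antizyme inhibitor (Azin1) captures antizyme, and spermidine acetyltransferase (Sat1) and spermine oxidase (Smox) take polyamines back down. Activated T cells are known to depend on this pathway, and spermidine is also the substrate from which hypusine is made on the translation factor Eif5a.

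Antizyme messages carry a site of programmed frameshifting, shown here because it is the control point that Oaz1 and Oaz2 share. Both are given 5′ to 3′ on the coding strand, from GENCODE M21 on GRCm38, at chr10:80828265-80828324 for Oaz1 and chr9:65686242-65686301 for Oaz2, both on the plus strand and inside the coding exons. Capitals mark the last codon before the shift and the stop codon TGA. The annotated coding sequence leaves out 1 base there, the T of that stop codon, and polyamines are known to raise the share of ribosomes that make this shift. The 2 stretches of 60 bases were identical at 49 positions.
Oaz1: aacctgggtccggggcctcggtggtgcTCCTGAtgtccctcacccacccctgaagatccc
Oaz2: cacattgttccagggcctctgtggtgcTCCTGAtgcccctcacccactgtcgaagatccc

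Upstream sequence is shown for 3 enzymes of synthesis that were all higher after activation, from RefSeq on GRCm38.p6. Each stretch runs 5′ to 3′ on the strand of its gene and ends before the GENCODE start of the gene: chr12:17544623-17544793 on the plus strand for Odc1, chr10:40302189-40302438 on the minus strand for Amd1 and chrX:157492288-157492537 on the minus strand for Sms. Capitals mark each E-box CACGTG, a motif that Myc and Max bind, and each GC box GGGCGG, on either strand. No 2 marked motifs overlapped.
Odc1: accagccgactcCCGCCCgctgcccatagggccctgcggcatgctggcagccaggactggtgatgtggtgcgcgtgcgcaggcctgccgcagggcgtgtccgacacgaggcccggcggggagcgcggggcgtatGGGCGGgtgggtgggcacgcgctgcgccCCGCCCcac
Amd1: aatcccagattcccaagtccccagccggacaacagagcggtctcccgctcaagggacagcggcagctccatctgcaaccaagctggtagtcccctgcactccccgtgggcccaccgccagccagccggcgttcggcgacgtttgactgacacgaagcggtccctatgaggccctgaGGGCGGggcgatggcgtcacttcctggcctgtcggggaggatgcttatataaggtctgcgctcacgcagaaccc
Sms: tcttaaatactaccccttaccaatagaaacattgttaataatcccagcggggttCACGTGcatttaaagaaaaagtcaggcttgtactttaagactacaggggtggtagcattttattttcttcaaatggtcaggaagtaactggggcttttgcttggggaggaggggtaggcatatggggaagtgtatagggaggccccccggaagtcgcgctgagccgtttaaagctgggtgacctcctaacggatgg

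The Odc1 stretch held 3 GC boxes, the Amd1 stretch 1 GC box and the Sms stretch 1 E-box. The stretch shown for Odc1 is 171 bases of its window of 250, since the GENCODE start lies inside that window. In all, 8 windows of 250 bases were matched for 7 of the 9 genes (all but Srm and Azin1), 2 of them for Sms. The E-box was found in windows of 1 of the 7 genes, Sms, and in 6.02% of 32851 windows of this length in the table. The GC box was found for 6 of the 7, Odc1, Amd1, Sms, Oaz2, Sat1 and Smox, and in 32.7% of all windows; for Sms it lay in the window that is not shown. A match is a description of letters and not a measured binding site.

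Values are the authors' RPM, which are not scaled by gene length, so levels are compared between libraries and not between genes. Recovered counts ran from 388902 to 1087675 per library, and 3 counts, the limit that a count of 0 allows, stood at 2.03 to 6.83 RPM (counting error only). All 9 T cell markers, among them Cd3e and Cd4, were present in every group, with summed levels of 174 to 2505 RPM. As a gauge of background, receptor genes of smell and pheromone sensing (Olfr and Vmn families) were summed per library: 31618 to 41180 RPM in activated KO and 30239 to 40501 RPM in activated WT libraries of the Acly cohort. They summed to 106687 to 110185 RPM in resting KO and 95847 to 106816 RPM in resting WT libraries of that cohort. In the Pdha1 cohort the sums did not follow the labels: they were 75859 to 89905 RPM in activated KO, 26547 to 106049 RPM in activated WT libraries (highest in number 3), 66696 RPM in the library labelled KO resting 3 and 104105 to 109203 RPM in the other resting libraries. Haemoglobin and Alas2 transcripts, erythroid markers, summed to 595 to 32756 RPM in the Pdha1 cohort and to 20.3 to 1193 RPM in the Acly cohort. The Acly transcript, the check of the target, averaged 12.3 ± 2.35 RPM in activated KO and 108 ± 3.52 RPM in activated WT cells of its cohort (SD, n = 3 each). In the Pdha1 cohort the Pdha1 transcript overlapped between genotypes, with means of 25.9 ± 5.36 RPM in activated KO and 43.6 ± 39.7 RPM in activated WT cells. At rest Pdha1 averaged 11.1 ± 13.3 RPM in KO cells (highest in number 3) and 5.31 ± 1.92 RPM in WT cells.

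**Figure D1:**
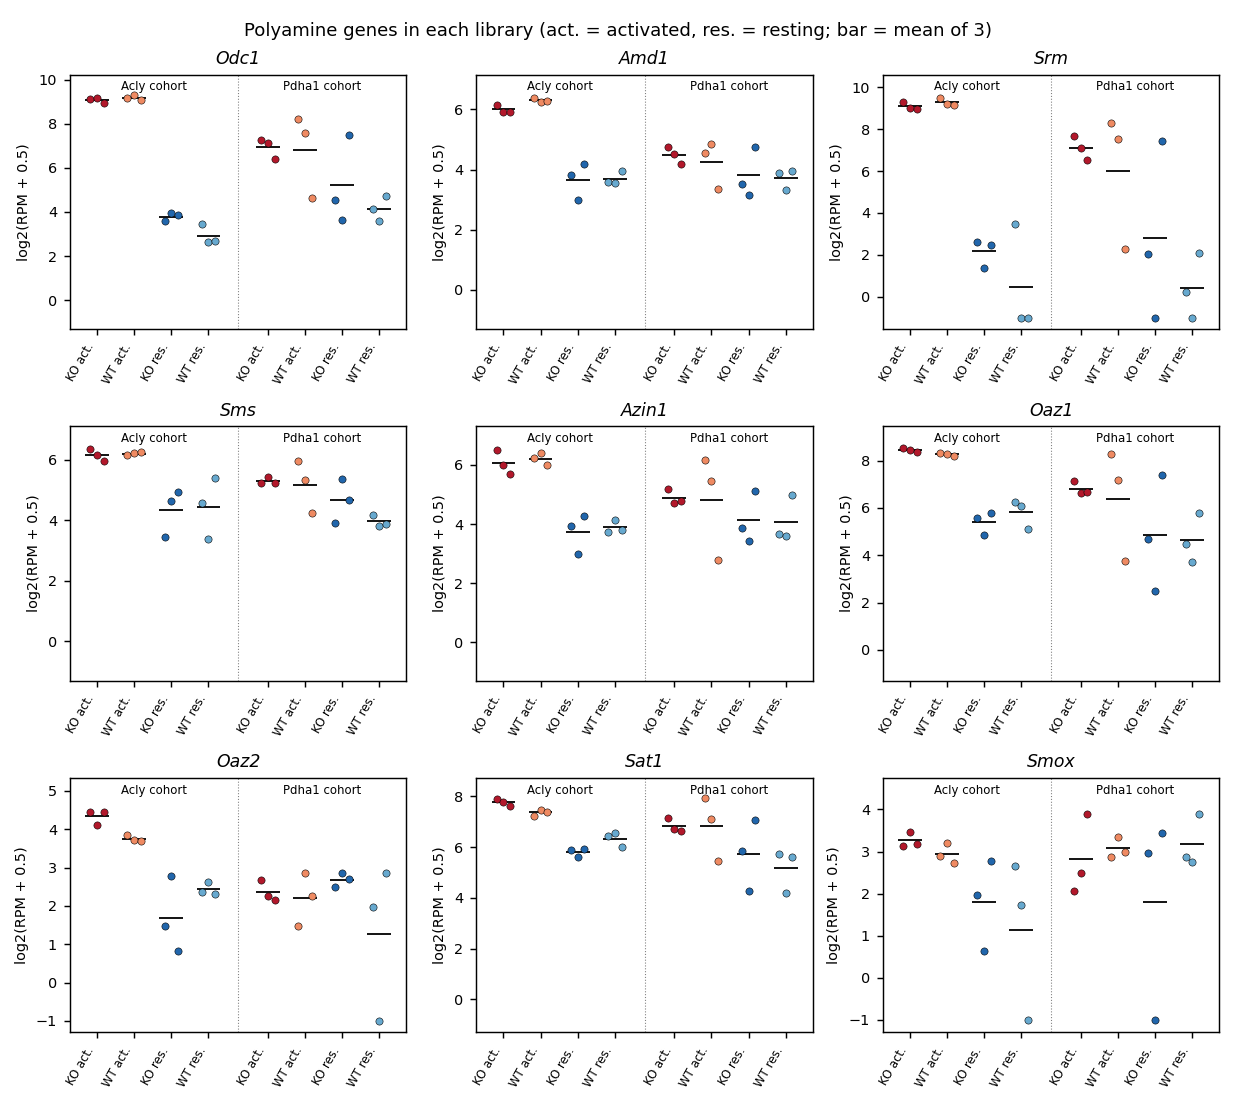
Level of each of the 9 polyamine genes, as log2(RPM + 0.5), in all 24 libraries (points, replicates 1 to 3 from left to right) with the group mean (bar). In the Acly cohort, left of each dotted line, activated libraries lie above resting ones of their genotype for every gene, while in the Pdha1 cohort KO resting 3 and WT activated 3 lie apart from the other libraries of their groups for Odc1, Srm and Oaz1.

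After activation of Acly KO cells, synthesis enzymes, antizymes and the antizyme inhibitor were all higher. By limma on log2(RPM + 0.5), with Benjamini-Hochberg adjustment over 31311 genes and a threshold of 0.05, 7 of the 8 genes other than Srm rose and none fell. Of all genes tested, 20.7% were called higher and 26.7% lower in this comparison. In all 8 genes other than Srm, every activated KO library stood above every resting KO library. That held for 22.6% of all genes, and 33.2% had every one below. Srm did so too, as a description only. The median log2 change of the 9 was 2.34, beside −0.67 over all genes tested. It includes Srm, which was chosen for its rise, so it is a description. Scaling in the manner of TMM moved the median of all genes to −0.39 and the share of calls that were higher to 59.6%, from 43.7% as deposited. The summed T cell markers stood at 1611 to 1663 RPM in activated KO and 550 to 653 RPM in resting KO libraries. Markers of CD8 and NK cells summed to 11.3 to 20.3 RPM in activated KO and 25.1 to 31.5 RPM in resting KO libraries (Ncr1 at 0 in both), and myeloid markers to 10.6 to 32.1 RPM in activated KO (Cd14 at 0) and 48.1 to 79.7 RPM in resting KO libraries (Cd14 and Lyz2 at 0). Their part in the changes was not tested. In these bulk libraries, more cells with a transcript and more of it per cell cannot be told apart.

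Odc1, the entry enzyme, stood at 564, 578 and 487 RPM in activated KO libraries, against 11.4, 14.9 and 13.9 RPM in resting KO libraries. No activated value came near a resting one. The fitted log2 rise of Odc1 was 5.29 ± 0.26 (standard error; limma, adjusted p = 6.1e-20), and the ratio of the group means was 40.5.

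Amd1 stood at 71.0, 60.4 and 60.3 RPM in activated KO cells and at 13.7, 7.45 and 17.7 RPM in resting KO cells, a log2 rise of 2.34 ± 0.32 (limma, adjusted p = 9.6e-08). Amd2, its near-identical copy, averaged 25.2 ± 5.67 RPM in activated KO and 2.65 ± 1.72 RPM in resting KO cells (SD, n = 3 each), so counts may be split between the copies. Both copies were higher in activated cells.

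Srm, which makes spermidine, stood at 622, 513 and 495 RPM in activated KO cells, against 5.71, 2.13 and 5.04 RPM in resting KO cells. The resting values were at most a few counts (11 in all), and 1 of the 3 libraries lay at or under the limit of 3 counts. The fitted log2 difference was 6.91 ± 1.07 and the ratio of means 127, given as a description because Srm was chosen for this rise. Sms, which makes spermine in the next step, stood at 81.1, 70.3 and 61.3 RPM in activated KO and 10.3, 24.5 and 30.3 RPM in resting KO cells. The groups did not overlap, and Sms rose by 1.81 ± 0.39 on the log2 scale (limma, adjusted p = 4.5e-04).

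The regulators of ornithine decarboxylase rose as well. Oaz1 stood at 372, 345 and 325 RPM in activated KO cells, against 47.1, 28.8 and 54.5 RPM in resting KO cells, and rose by 3.03 ± 0.26 (limma log2, adjusted p = 1.1e-12). Oaz2 stood at 21.2, 16.8 and 21.4 RPM in activated KO and 2.28, 6.39 and 1.26 RPM in resting KO cells, and rose by 2.64 ± 0.49 (adjusted p = 2.9e-05). Azin1, which opposes both antizymes, stood at 91.2, 64.0 and 51.6 RPM in activated KO and 14.9, 7.45 and 18.9 RPM in resting KO cells, and rose by 2.34 ± 0.33 (limma, adjusted p = 1.8e-07). The inhibitor and the antizymes thus all stood higher in every activated KO library than in any resting one.

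Of the breakdown enzymes, Sat1 rose and Smox did not pass the test. Sat1 stood at 238, 219 and 194 RPM in activated KO cells, against 58.6, 48.1 and 59.6 RPM in resting KO cells, a log2 rise of 1.96 ± 0.24 (limma, adjusted p = 5.9e-09). Smox stood at 8.31, 10.6 and 8.56 RPM in activated KO and 3.43, 1.06 and 6.30 RPM in resting KO cells, with a log2 change of 1.47 ± 0.69 (limma, adjusted p = 0.0757). Smox was called under 8 of 24 alternatives, with adjusted p from 0.00189 to 0.323 over all settings, and 2 of its 3 resting KO libraries lay at or under 3 counts.

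In the WT cells of the Acly cohort the same 9 genes were higher after activation in every library, a description only, since the activation of these cells chose the pathway. There 45.2% of all genes were called in either direction: 21.4% were called higher and 23.8% lower, and 23.1% had every activated library above every resting one. The median log2 difference was 2.33 for the 9 genes and −0.61 for all genes (−0.29 with scaling in the manner of TMM, where 63.1% of calls were higher, against 47.4% as deposited). Odc1 stood at 567, 629 and 536 RPM in activated WT cells, against 10.4, 5.64 and 5.96 RPM in resting WT cells, a log2 difference of 6.25 ± 0.26. Srm stood at 714, 596 and 573 RPM in activated WT cells, against 10.4, 0 and 0 RPM in resting WT cells. Only WT resting library 1 held any Srm counts at rest (9 counts), so the fitted difference of 8.80 ± 1.07 depended on the settings and ran from 7.74 to 10.37. The other 7 differences were 2.60 ± 0.32 for Amd1, 1.75 ± 0.39 for Sms, 2.33 ± 0.33 for Azin1, 2.44 ± 0.26 for Oaz1, 1.32 ± 0.49 for Oaz2, 1.05 ± 0.24 for Sat1 and 1.82 ± 0.69 for Smox. Sat1 had the smallest of these differences, and it depended on scaling, 0.26 with quantile normalization and 1.52 with scaling in the manner of TMM. The summed level of receptor genes differed between the states in both genotypes, as given above. Markers of CD8 and NK cells summed to 5.28 to 15.97 RPM in activated WT and 38.1 to 47.6 RPM in resting WT libraries, none at 0. Myeloid markers summed to 20.5 to 27.9 RPM in activated WT and 50.8 to 64.2 RPM in resting WT libraries (Cd14 at 0), and B cell markers to 3.95 to 11.0 RPM in activated WT (Cd79b at 0) and 11.3 to 44.7 RPM in resting WT libraries. The part of these markers and of the receptor genes in the differences was not tested.

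**Figure D2:**
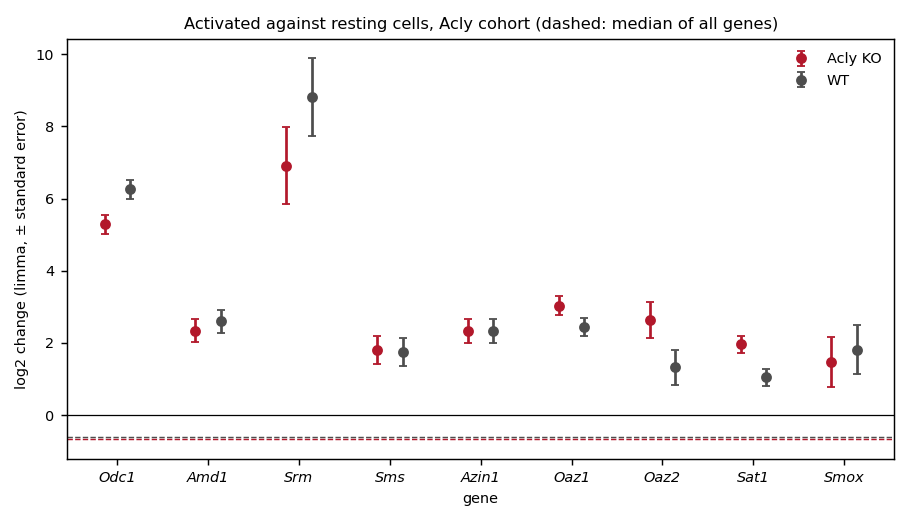
Fitted log2 change on activation (points, with standard errors) of the 9 genes in Acly KO cells and in WT cells of the same cohort; dashed lines give the median of all genes tested, −0.67 in KO and −0.61 in WT cells. All 18 points lie above 0, with Srm and Odc1 highest; values of Srm and of all WT cells are descriptions.

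Genes around the pathway were counted from a list of 31 symbols covering methionine and methylthioadenosine recycling, hypusine formation, transport and the Myc family. Of these, 30 were in the table and 27 were tested. After activation of Acly KO cells 17 rose, 3 fell and 7 did not pass the test, with a median log2 change of 2.06. Of all genes tested, 20.7% were called higher and 26.7% lower, with a median of −0.67. The largest evidence among those that rose was for Eif5a, the factor that carries hypusine, at 2119, 2379 and 1971 RPM in activated KO and 29.8, 37.4 and 29.1 RPM in resting KO cells (log2 change 6.05 ± 0.22, limma, adjusted p = 5.5e-24). Mat2a, which makes S-adenosylmethionine, rose by 3.83 ± 0.29, Mtap, which clears the methylthioadenosine left by Srm and Sms, by 4.20 ± 0.33, and Ahcy, which clears S-adenosylhomocysteine, by 4.80 ± 0.40. The 3 that fell were Azin2, Oaz3 and Slc18b1, named after their values were seen. Azin2 and Oaz3 are relatives of Azin1 and Oaz1 known mainly from brain and testis, and both fell while Azin1 and Oaz1 rose. From rest to activation, KO means dropped from 9.88 to 3.29 RPM (Azin2), 23.6 to 6.59 RPM (Oaz3) and 29.7 to 8.19 RPM (Slc18b1). The receptor-gene background of the same KO libraries also dropped, from a mean of 108357 to 34996 RPM. The part of this background in the 3 falls was not tested. In WT cells of this cohort, as a description, 18 of the 27 had every activated library above every resting one and 3 had every one below. Over all genes these shares were 23.1% and 28.8%. The median log2 difference of the 27 was 2.22, beside −0.61 over all genes.

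Acly KO cells were next compared with WT cells, after activation and at rest. After activation 0 of the 9 genes were called by limma, and 0 by edgeR or DESeq2 on recovered counts, with 0 at an unadjusted p under 0.05. Of all genes, 0.00639% were called in this comparison by limma and 3.47% had an unadjusted p under 0.05. The replicate numbers paired these libraries, and with a term for them 0 of the 9 were called, while the count over all genes was 5, against 2 without it. Standard errors of the fitted changes ran up to 1.07 (Srm), so a missed threshold does not show equal levels. The 9 T cell markers summed to 1611 to 1663 RPM in activated KO and 2155 to 2505 RPM in activated WT libraries, none at 0, and their part in the values that follow was not tested.

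Sat1 had the smallest p of the 9. It stood at 238, 219 and 194 RPM in activated KO cells, against 150, 178 and 168 RPM in activated WT cells, and every KO library lay above every WT library. The means were 217 ± 21.6 RPM in KO and 165 ± 13.9 RPM in WT cells (SD, n = 3 each), a log2 change of 0.39 ± 0.24 (limma, adjusted p = 1.0). Oaz2 stood at 21.2, 16.8 and 21.4 RPM in activated KO and 14, 12.6 and 12.3 RPM in activated WT cells, again without overlap, with a log2 change of 0.58 ± 0.49 (adjusted p = 1.0). Amd1 stood at 71.0, 60.4 and 60.3 RPM in activated KO cells, against 83.6, 75.0 and 77.4 RPM in activated WT cells, all KO libraries below all WT libraries (−0.30 ± 0.32, adjusted p = 1.0).

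Oaz1 also did not overlap, at 372, 345 and 325 RPM in activated KO and 320, 308 and 291 RPM in activated WT cells. Thus 3 of the 9 genes (Sat1, Oaz1 and Oaz2) had all KO libraries above all WT libraries, which held for 3.56% of all genes, and 1 (Amd1) had all below, which held for 7.38%. None of these 4 genes passed the test. Odc1 averaged 543 ± 49.2 RPM in activated KO and 577 ± 47.6 RPM in activated WT cells, and Srm 543 ± 68.4 RPM in KO and 628 ± 75.5 RPM in WT cells (SD, n = 3 each), with overlap in both. Sms averaged 70.9 ± 9.88 RPM in KO and 73.1 ± 2.62 RPM in WT cells, Azin1 68.9 ± 20.2 RPM in KO and 74.4 ± 10.4 RPM in WT cells, and Smox 9.15 ± 1.25 RPM in KO and 7.28 ± 1.29 RPM in WT cells.

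At rest 0 of the 9 genes were called between Acly KO and WT cells by limma, edgeR or DESeq2, where 0% of all genes were called by limma. Levels of the Acly transcript overlapped between these resting groups, as given above, so the comparison follows the labels. An unadjusted p under 0.05 was found for 2 of the 9 and for 5.57% of all genes. Odc1 stood at 11.4, 14.9 and 13.9 RPM in resting KO cells, against 10.4, 5.64 and 5.96 RPM in resting WT cells, all KO libraries above all WT libraries. The log2 change of Odc1 was 0.87 ± 0.26 (limma, adjusted p = 0.512), from 35 counts in KO and 17 in WT cells. Sat1 stood at 58.6, 48.1 and 59.6 RPM in resting KO and 85.4, 93.8 and 62.8 RPM in resting WT cells, all KO libraries below all WT libraries, with a log2 change of −0.52 ± 0.24 (limma, adjusted p = 0.81). Among all genes 3.33% had every KO library above and 3.74% every KO library below. Oaz1 had the next smallest p, at 47.1, 28.8 and 54.5 RPM in resting KO and 74.8, 68.0 and 34.3 RPM in resting WT cells (−0.41 ± 0.26, adjusted p = 0.975), with overlap. Markers of CD8 and NK cells also did not overlap, at 25.1 to 31.5 RPM in resting KO (Ncr1 at 0) and 38.1 to 47.6 RPM in resting WT libraries, and their part in these values was not tested.

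Whether Srm was called at rest depended on 1 library. Its values were 5.71, 2.13 and 5.04 RPM in resting KO cells, against 10.4, 0 and 0 RPM in resting WT cells. Without WT resting library 1, the fit called Srm higher in KO cells (limma, adjusted p = 5.0e-06), where 0.0429% of all genes were called higher, and with it Srm had an adjusted p of 0.979. The 11 counts in KO and 9 in WT cells, of which 2 WT libraries had none, do not carry a fold change.

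**Figure D3:**
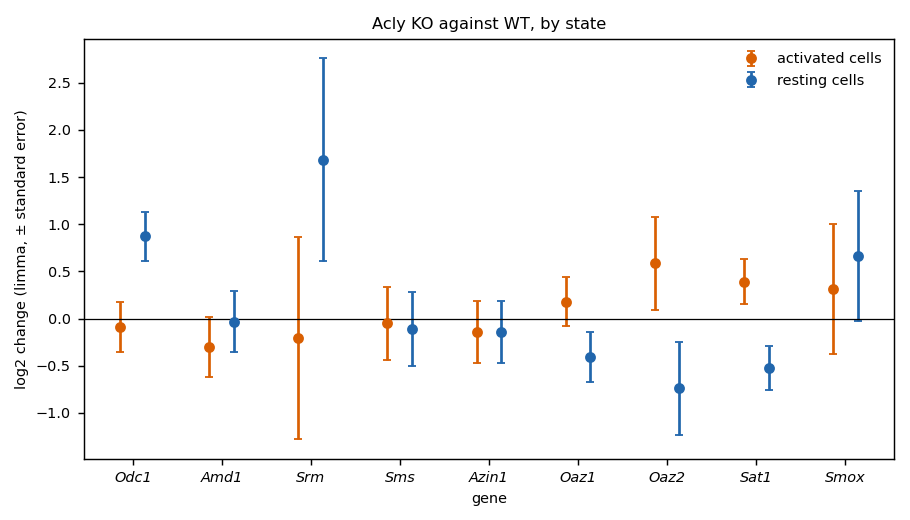
Fitted log2 change of Acly KO against WT (points, with standard errors) for the 9 genes, in activated and in resting cells; the line at 0 marks equal levels. Sat1 lies at 0.39 after activation and −0.52 at rest, and Odc1 at 0.87 at rest; no gene passed the threshold in either state.

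The difference between the 2 states was tested as an interaction, the change on activation in KO minus that in WT cells. Here 0 of the 8 genes other than Srm were called by limma, edgeR or DESeq2 and 0% of all genes by limma, with 2 of these 8 and 4.19% of all genes at an unadjusted p under 0.05. Sat1 had the smallest p, with an interaction of 0.91 ± 0.33 (limma, adjusted p = 1.0), and Odc1 the next, with −0.96 ± 0.37 (limma, adjusted p = 1.0). Oaz2 followed at 1.32 ± 0.70 (adjusted p = 1.0). Srm is given only as a value, −1.89 ± 1.52, which ran from −3.38 to −0.17 over the alternatives. Sat1 and Sms lie on the X chromosome, and Xist RNA, which coats the inactive X chromosome of female cells, varied from 6.80 to 132 RPM among activated KO and from 3.99 to 63.9 RPM among activated WT libraries. With the level of Xist as a covariate, the log2 change of Sat1 in activated cells was 0.45 ± 0.24 and its interaction 0.95 ± 0.33.

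The balance of Odc1 to its antizyme was followed as the ratio of Odc1 to Oaz1 RPM within each library, chosen after values were seen. It is a ratio of levels not scaled by gene length. The ratio was 1.52, 1.68 and 1.5 in activated KO cells, against 1.77, 2.05 and 1.84 in activated WT cells of the Acly cohort. At rest it was 0.243, 0.518 and 0.255 in KO and 0.140, 0.0829 and 0.174 in WT cells. The KO libraries of this cohort thus lay below all WT libraries after activation and above them at rest. Both of its genotypes had far higher ratios after activation. The resting ratios rest on few Odc1 counts, as given above. The ratio of Odc1 to Azin1 RPM, by contrast, overlapped between the genotypes in both states. It ran from 6.19 to 9.43 in activated KO and 7.43 to 8.39 in activated WT cells. At rest it ran from 0.733 to 2.00 in KO and 0.333 to 0.818 in WT cells. In the Pdha1 cohort as labelled, the ratio of Odc1 to Oaz1 ran from 0.815 to 1.41 in activated KO and 0.911 to 2.33 in resting KO cells, with overlap. It ran from 0.969 to 1.92 in activated WT and 0.464 to 0.917 in resting WT cells, without overlap. The genotypes of that cohort overlapped in both states. No test was made of these ratios, and how many other gene pairs separate the genotypes in this way was not counted.

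Among the genes around the pathway, 0 of 27 were called between Acly KO and WT cells after activation by limma, and 3 had an unadjusted p under 0.05, beside 3.47% of all genes. Adi1, an enzyme of the methionine salvage pathway, stood at 47.2, 49.7 and 39.7 RPM in activated KO cells, against 98.9, 91.2 and 76.5 RPM in activated WT cells. The groups did not overlap, and the log2 change was −0.96 ± 0.32 (limma, adjusted p = 1.0). Mtap, which opens the same salvage route, stood at 134, 140 and 149 RPM in activated KO and 239, 234 and 199 RPM in activated WT cells, also without overlap (−0.66 ± 0.33, adjusted p = 1.0). Sat2, the remaining gene, stood at 1.51 to 3.53 RPM in KO and 0 to 3.52 RPM in WT cells, at or under 3 counts in 2 libraries of each group. At rest Adi1 was again the gene with the smallest p, at 10.3, 8.52 and 11.4 RPM in resting KO and 17.4, 25.4 and 11.9 RPM in resting WT cells (−0.77 ± 0.32, limma, adjusted p = 0.723), and 0 of the 27 were called.

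With all its libraries as labelled, the Pdha1 cohort gave no call on any of the 9 genes by limma, and its libraries within a group differed widely. Odc1 stood at 154, 138 and 83.2 RPM in activated KO, 296, 190 and 24.7 RPM in activated WT, 22.8, 11.8 and 177 RPM in resting KO and 17.0, 11.5 and 25.6 RPM in resting WT cells. Srm stood at 201, 138 and 90.6 RPM in activated KO, 308, 183 and 4.28 RPM in activated WT, 3.66, 0 and 172 RPM in resting KO and 0.677, 0 and 3.75 RPM in resting WT cells. The library labelled WT activated 3 was close to resting libraries in both genes, and the library labelled KO resting 3 as high as activated ones. The same 2 libraries stood apart by receptor-gene background, given above, and by activation markers: the sum of Il2ra, Cd69, Tfrc, Myc and Irf4 ran from 84.9 to 1270 RPM in activated WT libraries and from 86.3 to 637 RPM in resting KO libraries. The labels were kept as given. The part of background and of erythroid transcripts in the values of this cohort was not tested.

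**Figure D4:**
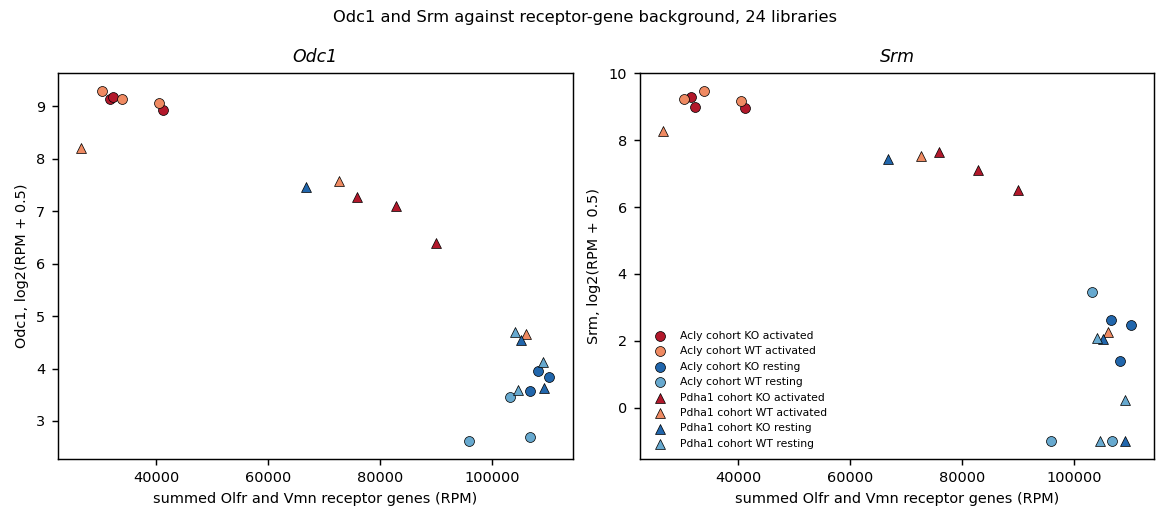
Levels of Odc1 and Srm, as log2(RPM + 0.5), against the RPM of all Olfr and Vmn receptor genes together, for the 24 libraries (circles, Acly cohort; triangles, Pdha1 cohort; colours, genotype and state). In the Pdha1 cohort the library labelled WT activated 3 lies among the resting libraries, at 24.7 RPM of Odc1, and the library labelled KO resting 3 among the activated ones, at 177 RPM.

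With all Pdha1 libraries, 0 of the 8 genes other than Srm were called on activation of WT cells by limma or edgeR and 2 (Odc1 and Sms) by DESeq2. Over all genes, limma called 0%, and DESeq2 called 9.25% higher of those to which it gave an adjusted p. The fitted log2 changes in WT cells were 2.67 ± 1.07 for Odc1 (adjusted p = 0.348), 0.52 ± 0.51 for Amd1, 1.21 ± 0.47 for Sms, 0.73 ± 0.73 for Azin1, 1.72 ± 1.37 for Oaz1, 0.92 ± 0.84 for Oaz2, 1.65 ± 0.72 for Sat1 and −0.10 ± 0.92 for Smox, with 5.57 ± 2.15 for Srm as a description. Sms, at 61.7, 39.8 and 18.2 RPM in activated WT cells, against 17.7, 13.6 and 14.3 RPM in resting ones, did not overlap between the states, and neither did Srm. That held for 5.87% of all genes.

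On activation of Pdha1 KO cells, 0 of the 8 were called by limma, edgeR or DESeq2, with 0 of the 8 and 2.88% of all genes at an unadjusted p under 0.05 and 0% of all genes called by limma. The changes were 1.71 ± 1.07 for Odc1, 0.67 ± 0.51 for Amd1, 0.65 ± 0.47 for Sms, 0.76 ± 0.73 for Azin1, 1.96 ± 1.37 for Oaz1, −0.32 ± 0.84 for Oaz2, 1.12 ± 0.72 for Sat1 and 1.02 ± 0.92 for Smox (limma, adjusted p = 0.978 or above), and 4.26 ± 2.15 for Srm. All 9 genes overlapped between the states, where 3.47% of all genes had every activated library above and 4.54% every one below.

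Leaving out the 2 libraries that stood apart, an alternative added after the data were seen, brought activation calls in both genotypes. These libraries had been seen to stand apart in Odc1, Srm and Oaz1 themselves, so leaving them out favoured a rise of such genes. The p-values that follow are not independent of that choice. Of all genes, 7% were then called higher in KO cells and 14.9% in WT cells. In KO cells 3 genes were then called higher: Odc1 at 2.84 ± 0.43 (limma, adjusted p = 4.2e-04), Oaz1 at 3.23 ± 0.68 (adjusted p = 0.0133) and Sat1 at 1.78 ± 0.50 (adjusted p = 0.0382). In WT cells 5 were called higher: Odc1 at 3.75 ± 0.43 (adjusted p = 8.6e-06), Oaz1 at 3.05 ± 0.68, Sat1 at 2.34 ± 0.50, Azin1 at 1.74 ± 0.45 and Sms at 1.68 ± 0.42. Leaving out WT activated 3 alone gave 4 calls in WT cells, Odc1, Sat1, Azin1 and Sms, with 9.48% of all genes called higher. Leaving out WT activated 1 as well as the 2 libraries gave 2 calls in KO cells (Odc1 and Azin1) and 1 in WT cells (Odc1), with 8.22% of all genes called higher in KO and 7.34% in WT cells.

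Pdha1 KO against WT cells, with libraries as labelled, gave no call on the 9 genes in either state by limma, edgeR or DESeq2. In each state 0 of the 9 had an unadjusted p under 0.05, and limma called 0% of all genes. The Pdha1 transcript itself overlapped between the groups compared, so these results describe the labels. An unadjusted p under 0.05 was found for 2.82% of all genes after activation and 2.1% at rest. After activation, Srm, Amd1 and Oaz1 had the smallest p, with log2 changes of 1.08 ± 2.15, 0.24 ± 0.51 and 0.42 ± 1.37 (adjusted p = 1.0). All 3 signs turned without the library labelled WT activated 3, to −0.80, −0.21 and −0.90, so no direction is given for them. Without both libraries that stood apart, Odc1 stood at 154, 138 and 83.2 RPM in activated KO cells, against 296 and 190 RPM in activated WT cells, with a log2 change of −0.97 ± 0.43 (limma, adjusted p = 0.264). All 9 genes overlapped between the genotypes at rest, where 3.89% of all genes had every KO library above and 3.57% every one below. At rest Oaz2, Smox and Sms had the smallest p, with changes of 1.41 ± 0.84, −1.37 ± 0.92 and 0.69 ± 0.47 (adjusted p = 1.0). The interaction of Pdha1 loss and activation called 0 of the 8 genes other than Srm by limma, edgeR or DESeq2, with 0 of these 8 and 2.31% of all genes at an unadjusted p under 0.05 and 0% of all genes called by limma. It was −1.24 ± 1.19 for Oaz2, 1.11 ± 1.30 for Smox and −0.56 ± 0.67 for Sms.

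The genes whose pattern over the 24 libraries was most like that of Srm were sought among 9195 genes averaging at least 10 RPM, by Pearson's r of log2(RPM + 0.5). For Srm they were Cad (r = 0.984), Nup62 (0.977), Mapkapk2 (0.976), Psma4 (0.974) and Znhit6 (0.974). For Odc1 they included Ywhab (0.986), AC117239.2 (0.982), Hnrnpc (0.980) and Cdv3 (0.978). Of the polyamine genes, Odc1 was nearest to Srm, at rank 52 (r = 0.961), and Sms lay much farther, at rank 2889 (r = 0.761). These libraries share states, cohorts and background, and the values are descriptions over 24 libraries. Cad, the nearest to Srm over both cohorts, ranked 12 within the Acly cohort (r = 0.986) and 2 within the Pdha1 cohort (r = 0.993). It starts pyrimidine synthesis and stood at 66.7 to 88.5 RPM in activated KO and 74.4 to 92.8 RPM in activated WT cells of the Acly cohort, against 0 to 3.43 RPM in resting KO and 0 to 3.48 RPM in resting WT cells.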

How the data were processed

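The authors deposited a table of RPM, reads scaled to a fixed total, for 46981 genes in 24 libraries (every column sums to 1000000). Per the labels' protocols, a stranded total RNA kit with ribosomal and globin depletion and reads of 75 bp were used. Per the submitters' processing notes the builds were GRCm38 and mm10; no aligner or counter is named in the sources used here. No column of the table was left unmapped.

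Undoing the scaling and a correction for collisions among 4096 identifiers gave whole counts for 100% of values within 0.01, at most 4095 per gene and library. The labels name no such identifiers, so whether these counts are of reads or of molecules is not given in the sources used here. On these recovered counts edgeR 4.0.16 called 13214 genes and DESeq2 1.42.0 called 9729 genes on activation of Acly KO cells, against 14846 by limma on RPM.

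The test was limma 3.58.1 (R 4.3.3, trend and robust) on log2(RPM + 0.5), with each cohort's 12 libraries in 1 fit, a minimum of 1 RPM in 3 or more libraries, and Benjamini-Hochberg adjustment over all genes tested. The pseudocount understates changes of low genes. Fits were also run on simulated counts drawn independently for each library, which does not cover libraries that deviate together. No label ties a replicate to its own animal, and p-values cover only the scatter among these libraries, which may be technical. Same-numbered libraries deviated together, with each r above 0.1, in activated KO against WT of the Acly cohort (0.114 to 0.254) and the Pdha1 cohort (0.183 to 0.601). This also held for activation of Acly cohort WT cells (0.109 to 0.269). In resting Pdha1 KO against WT r was mixed, at 0.0121, 0.487 and 0.512. It was 0.0421 to 0.0910 in resting Acly KO against WT and 0.0724 to 0.125 on activation of Acly KO cells. On activation of Pdha1 cohort cells it ran from −0.602 to −0.175 in KO and −0.489 to 0.0846 in WT cells. In every contrast of the Acly cohort, the same-numbered library had the highest r of the group compared, also where r was low. Xist RNA also rose with the replicate number in each group of that cohort. Symbols and positions came from GENCODE M21.

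The genes, lists and tests were chosen with earlier results of these data known. The rule named all 9 genes, fitted changes of all on activation and of the 3 smallest p otherwise, and up to 4 genes of smallest p from the list around the pathway. It also named the 5 genes most like each of Srm and Odc1 in pattern; 1 of these is not reported here. Alternatives were other pseudocounts (0.1 and 1), filters, scalings, limma settings, replicate terms, fits of the compared groups alone and leaving out each library; edgeR, DESeq2, an Xist covariate and leaving out 2 or 3 Pdha1 libraries were added after seeing the data.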

Additional observations from a re-analysis of the deposited data

Results flagged for a closer look

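Values of Sat1 lay on opposite sides between Acly KO and WT cells in the 2 states. Every KO library lay above every WT library after activation and below every WT library at rest, and the activated minus the resting difference was 0.91 on the log2 scale. Among all genes, 3.56% had every KO library above after activation and 3.74% every one below at rest. The share with both was not counted, and Sat1 was picked out by this pattern. The interaction was tested by limma and did not pass after adjustment over all genes (limma, adjusted p = 1.0). It ran from 0.79 to 1.12 over the settings run, with adjusted p from 0.253 to 1.0.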

How the results depend on the processing

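In the Acly cohort no fitted change of the 9 genes given in the text turned its sign under any alternative run. The calls on activation of KO cells were 7, and 7 to 8 with a library left out. The count at rest (KO against WT) was 0, and 0 to 1 with a library left out, the 1 being Srm without WT resting library 1. In the Pdha1 cohort the count on activation of KO cells was 0, but 3 with 2 libraries left out and 2 with 3 left out. On activation of WT cells it was 0, but 0 to 4 with each library left out, 2 by DESeq2, 5 with 2 libraries left out and 1 with 3 left out, where the lone activated WT library is assumed to vary like the other groups. The replicate block, in the 3 contrasts where each r of same-numbered libraries was above 0.1 and in the others, changed no call on the 9 genes (7 on activation of Acly KO cells, 0 in the contrasts of genotypes).

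Signs that turned were all in the Pdha1 cohort. In activated KO against WT, Srm, Amd1 and Oaz1 gave −0.80, −0.21 and −0.90 with 2 libraries left out, and −0.42, −0.35 and −0.35 with 3 left out. By edgeR, Srm gave −0.18 and Oaz1 −0.44, and by DESeq2 Srm gave −0.55, Amd1 −0.036 and Oaz1 −0.82. On activation of WT cells, Smox gave 0.035 by DESeq2 and 0.18 with 3 libraries left out. With each library left out in turn, activated KO against WT ran from −0.80 to 2.21 for Srm, −0.21 to 0.54 for Amd1 and −0.90 to 1.36 for Oaz1. Smox ran from −2.19 to 0.032 in resting KO against WT, −0.38 to 1.83 on activation of KO cells, −0.30 to 0.26 on activation of WT cells and −0.29 to 1.93 in the interaction, and Oaz2 from −0.21 to 1.72 on activation of WT cells. The causes were not tested.

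Depth was 388902 to 1087675 recovered counts a library, and in the resting libraries of the Acly cohort Srm held 0 to 9 counts, Oaz2 1 to 6 and Smox 0 to 5, so these values rest on few counts.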
